A study of Mus musculus with 3 samples.

Results

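The 4 genes described here form the block of mouse mitochondrial DNA that opens with the ribosomal RNA genes. They were taken by position on the mitochondrial chromosome (chrM, build mm9, 16299 bp), and they are 4 of the 37 mitochondrial genes in a RefSeq table. mt-Rnr1 (chrM:70-1024) encodes the RNA of the small subunit of the mitochondrial ribosome, and mt-Rnr2 (chrM:1094-2675) that of the large subunit. mt-Tv (chrM:1025-1093), between them, encodes the transfer RNA for valine. mt-Tl1 (chrM:2676-2750), directly after mt-Rnr2, encodes the transfer RNA for leucine that reads UUR codons. The block was chosen by its measured coverage in the 3 libraries and its ratios to IgG, since ERRα was already known to peak beside mt-Tl1. These values are therefore given as descriptions, with no test.

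As background, both rRNAs and the flanking transfer RNAs are transcribed together as parts of long precursors, and the transfer RNAs are cut out as punctuation between them. In human mitochondria the leucine transfer RNA gene also holds a site bound by the factor MTERF1, which stops transcription there. ERRα is an orphan nuclear receptor known mainly for switching on nuclear genes of mitochondrial energy metabolism. mTOR is a protein kinase that senses nutrients and is named as the target of rapamycin.

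The libraries came from chromatin immunoprecipitation and sequencing (ChIP-seq) of livers from C57Bl/6 males aged 2 to 3 months. There were 3 groups of 1 library each: an mTOR ChIP, an ERRα ChIP and a control with rabbit immunoglobulin G (IgG). Each ChIP library pooled 8 immunoprecipitations of chromatin from a pool of 26 livers, and no treatment or genotype differed between groups. There are thus no replicates, and every comparison is one of libraries. Sonicated nuclei, not isolated mitochondria, were the starting material.

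Values are tag coverage per position, which the authors scaled to 10000000 tags per library. The libraries held 62500000 (mTOR), 74200000 (ERRα) and 68800000 (IgG) tags, so that 1 tag was worth 0.16, 0.135 and 0.145 units. Mean coverage of covered chrM positions was 577 times the autosomal mean in the mTOR ChIP, 191 times in the ERRα ChIP and 193 times in IgG. The part of this higher chrM level in the mTOR ratios below was not tested. Where a ratio carries a 95% interval, it is an exact Clopper-Pearson one computed from approximate numbers of tags. It covers counting error only, and neighbouring positions share tags. Every one of the 2681 positions of the 4 genes was covered in all 3 libraries, so none was left out for low values.

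mt-Tl1 was the gene of the block where ERRα stood out. Over its 75 bp, the mean was 330 (329.9) units for ERRα, 251 for mTOR and 104 for IgG. ERRα was the highest of the libraries at every base of mt-Tl1, with 315 to 350 (349.8) units against 242.5 to 270.9 for mTOR and 101 to 107 for IgG. ERRα was 3.18 times IgG (interval 2.83 to 3.59) and 1.31 times mTOR (1.20 to 1.44). Over the rest of covered chrM, 9536 positions, the median ratio of ERRα to IgG was 0.877 and that of ERRα to mTOR 0.374.

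The large-subunit rRNA gene mt-Rnr2 showed a gradient in ERRα towards mt-Tl1. Its mean was 146 units for ERRα against 109 for IgG, a ratio of 1.33 (1.30 to 1.37), but this mean joined unlike ends. Over the first 396 bp (chrM:1094-1489) the ratio was 0.942 (0.887 to 1.00), and over the next 396 bp (chrM:1490-1885) it was 0.956 (0.895 to 1.02). In these stretches of the gene the mean of ERRα was not above that of IgG. Over chrM:1886-2280 it was 1.29 (1.21 to 1.36). Over the last 395 bp (chrM:2281-2675) it was 2.15 (2.04 to 2.27), with 235 units for ERRα against 109 for IgG. The ERRα peak beside mt-Tl1 was known when the block was chosen, so nothing is read from the spacing of these intervals. The median of the single-base ratios over the whole gene was 1.08.

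The small-subunit rRNA gene mt-Rnr1 had no such excess. Its mean was 104 units for ERRα and 112 for IgG, a ratio of 0.926 (0.890 to 0.964). At single bases the ratio ranged from 0.818 to 1.03. The valine transfer RNA gene mt-Tv had the lowest ERRα ratio of the 4 genes, with 87.7 units against 105 in IgG, or 0.837 (0.714 to 0.982). The intervals of mt-Rnr1 and mt-Tv overlapped, and their order was not tested. Both ratios lay within the 5th to 95th percentile range of single positions over the rest of chrM, 0.767 to 1.13.

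**Figure D1:**
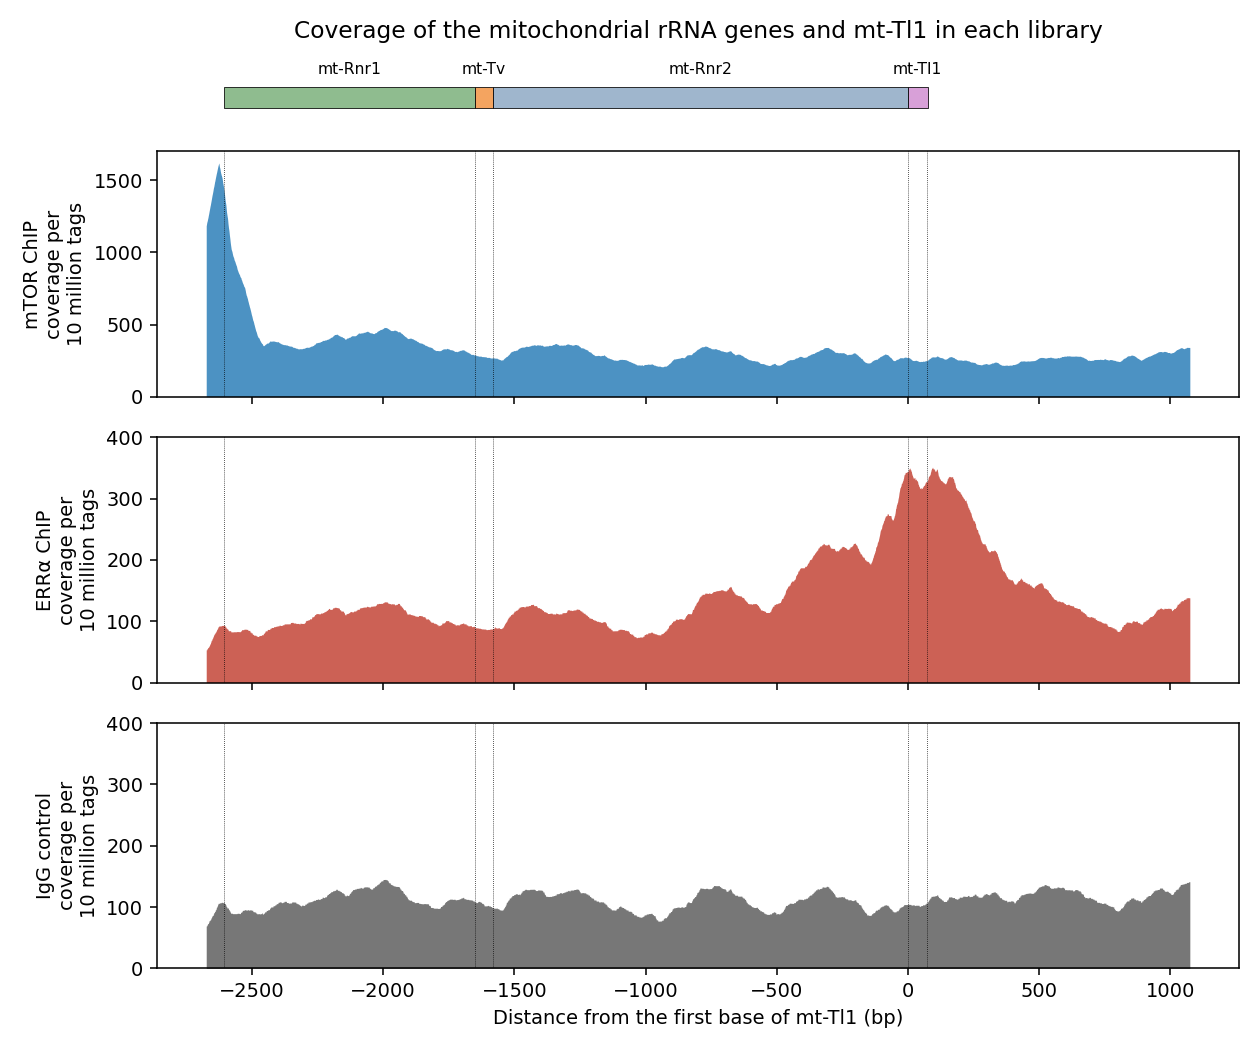
Coverage per position (units, scaled to 10000000 tags) for mTOR, ERRα and IgG, against distance in bp from the first base of mt-Tl1, with the 4 genes drawn to scale on top; the mTOR axis runs higher than the others. ERRα rises through the end of mt-Rnr2 to about 350 (349.8) in mt-Tl1, IgG stays between 77.1 and 145 over the 4 genes, and mTOR is highest at the start of mt-Rnr1.

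The ERRα coverage formed a dome with a pair of tops. In the coverage itself the highest value was 351, at chrM:2769-2770, which is 93 bp after the first base of mt-Tl1. That position lies just past the gene, where the RefSeq table places ND1, a subunit of respiratory complex I. The other top, 349.8 units at chrM:2683, lay 7 bp after the first base of mt-Tl1. The tops differed by 1.2 units, whereas counting error alone gave the higher a range of 338 to 364. They were 86 bp apart, and between them ERRα fell to 315 at chrM:2727. mTOR dipped there as well, whereas IgG at the dip was close to its level at chrM:2683. At chrM:2683, chrM:2727 and chrM:2769, mTOR was 266.4, 243.8 and 276.7, and IgG was 104.4, 102.5 and 117.5. The ratio of ERRα to IgG had no second top in 50-bp bins: it fell from 3.28 to 3.13 and 2.94 across chrM:2651-2800. Which top was the higher could not be told at this depth.

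Dividing by IgG placed the maximum inside mt-Tl1. IgG was 104.4 at chrM:2683 and 117.5 at chrM:2769, so the ratio was 3.35 (3.08 to 3.64; about 2596 ERRα and 718 IgG tags) at the first and 2.99 (2.76 to 3.24) at the second. These intervals overlapped. Dividing by mTOR instead of IgG placed the maximum at chrM:2690, at 1.34. ERRα exceeded mTOR on 357 bp in a row, chrM:2609-2965, so the dome was also seen without the IgG library.

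The dome was broad and reached past mt-Tl1 on both sides. ERRα was at least 2 times IgG on 492 bp (chrM:2462-2953), at least 1.5 times on 851 bp (chrM:2227-3077) and at least equal to it on 1497 bp (chrM:1748-3244). Of the 851 bp, 449 lay in mt-Rnr2, 75 were mt-Tl1 and 327 lay after it. That stretch made up 6.97% of covered chrM and held 14.8% of ERRα coverage, against 6.45% of IgG and 5.18% of mTOR coverage. Of about 10674 ERRα tags in it, 6539 exceeded the IgG level multiplied by the median chrM ratio. The stretch was defined by its ratio to IgG. A larger ERRα than IgG share and an excess of ERRα tags therefore follow from its definition.

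Which side of the dome reached farther depended on the level. From chrM:2683 the ratio to IgG stayed at or above 1 for 935 bp towards mt-Rnr1 and for 561 bp the other way. At or above 2 it stayed for 221 and 270 bp, and at 50% of its maximum for 350 and 344 bp. Measured above the median ratio of the rest of chrM, it reached 179 and 250 bp at 50% of its height and 79 and 185 bp at 75%. The low tail was thus longer on the mt-Rnr2 side and the upper part longer on the other. ERRα coverage itself was 798 bp wide at 50% of its maximum. Its reach was 517 and 280 bp counted from the top at chrM:2769, but 431 and 366 bp counted from the top at chrM:2683. Above the median of the flanks it was 203 and 182 bp, counted from the top at chrM:2769. Coverage had a shoulder in mt-Rnr2. It was 222 at chrM:2351-2400 and 220.0 at chrM:2451-2500, and it dipped to 201 at chrM:2501-2550 before the final climb. IgG had a high and a low in the first and the last of these bins, at 129 and 90.2. In the ratio the shoulder was therefore a steady climb, from 1.72 to 2.23 over the same bins.

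The steepest 50-bp stretch on the mt-Rnr2 side lay at chrM:2618-2668, where ERRα gained 1.55 units per bp, or 0.443% of its maximum. On the other side it lay at chrM:2904-2954, where ERRα lost 1.14 units per bp, or 0.325%. The counting intervals of these slopes, 1.33 to 1.77 and 0.919 to 1.36 units per bp, overlapped, and their order was not tested. Averaged between 25% and 75% of the maximum, the slopes were 0.213 units per bp on the mt-Rnr2 side and 0.328 on the other. With a baseline of 0, the 25% level lies below the flank median of 121 units. These averages therefore run past the dome into its flanks and do not describe its sides alone. No single position carried the dome. Within 500 bp of mt-Tl1 the largest step between neighbouring bases of the ERRα track was 4.2 units, about 31 tags or 1.20% of the maximum. The largest steps of mTOR and IgG there were 4.9 and 3.2 units.

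**Figure D2:**
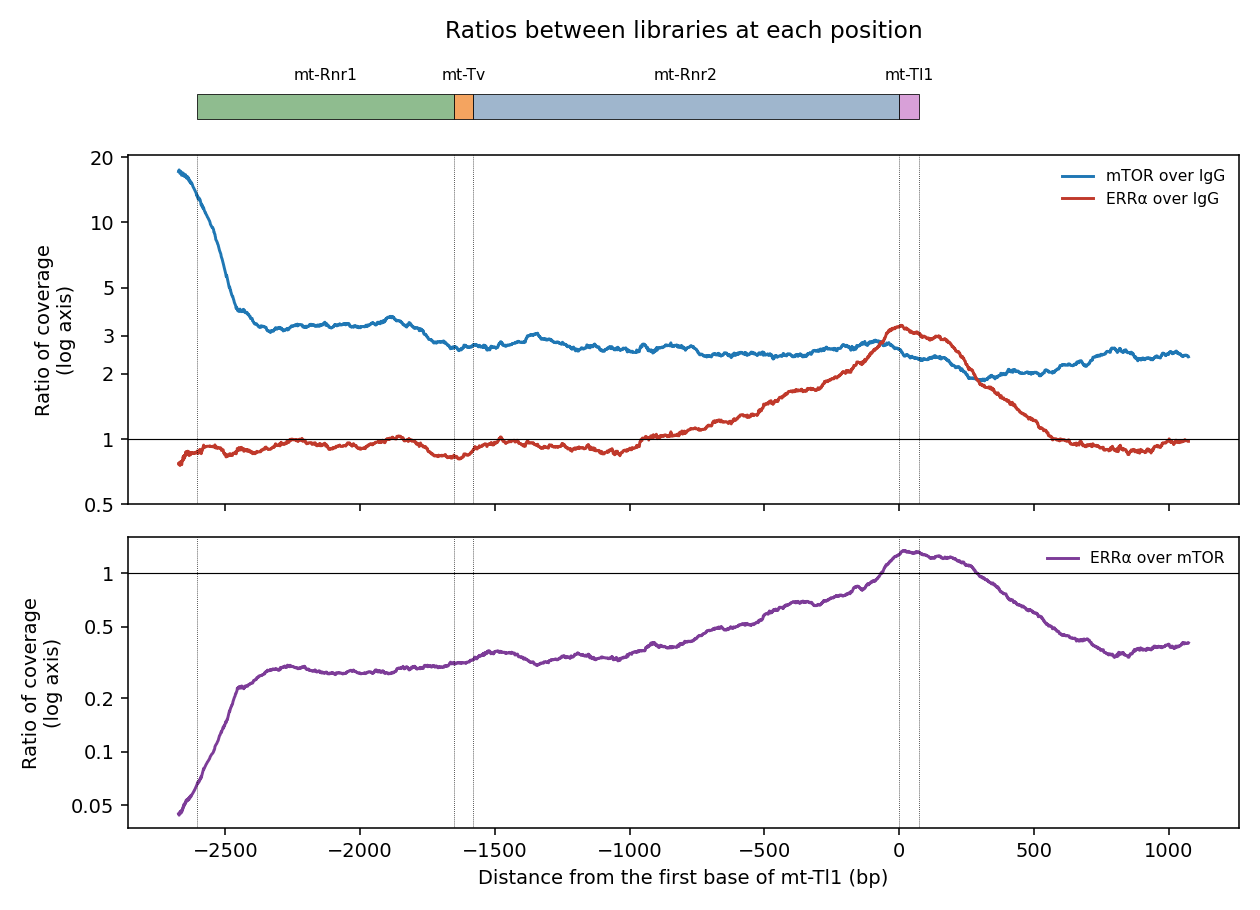
Ratio of coverage at each position (log axes) against distance in bp from the first base of mt-Tl1: mTOR and ERRα over IgG in the upper panel, ERRα over mTOR in the lower, with a line at 1 and the 4 genes on top. ERRα over IgG peaks at 3.35 in mt-Tl1, ERRα over mTOR peaks at 1.34, and mTOR over IgG falls from 13.2 at the start of mt-Rnr1.

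The mTOR ChIP had another pattern over the same genes. It was above IgG at every base, but it was so over most of chrM, where its median ratio outside the 4 genes was 2.35. mt-Rnr1 had the highest mean, 444 units against 112 in IgG, a ratio of 3.95 (3.83 to 4.08). mt-Tv stood at 2.65 (2.32 to 3.01), with 277 units against 105. mt-Rnr2 stood at 2.63 (2.56 to 2.70), with 287 units against 109. mt-Tl1 stood at 2.43 (2.14 to 2.76). The intervals of the last 3 genes overlapped, and their order was not tested. With each library scaled to its own chrM median, mt-Rnr1 was at 1.59, mt-Tv at 1.07 and mt-Rnr2 at 1.06. mt-Tl1 then stood at 0.979, close to 1, and no interval was computed for this scaling.

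mTOR was highest over the first bases of mt-Rnr1, but the gene also stood at 3.39 times IgG without 150 bp at each end. mTOR coverage was 1427 (1426.9) at the first base of the gene, against 93.1 for ERRα and 107.8 for IgG, which was 13.2 times IgG. It was the flank of a peak centred beyond the gene: the 68 bp before mt-Rnr1, where the table places the phenylalanine transfer RNA gene TrnF, stood at 15.6 times IgG (13.8 to 17.6). From there mTOR fell below 10 times IgG at chrM:119, below 5 times at chrM:193 and below 4 times at chrM:219, which is 149 bp into mt-Rnr1. Beside the end of the linear map, coverage rose over the first bases in all 3 libraries, in IgG from 69.1 at chrM:2 to 107.8 at chrM:60.

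Past this flank mTOR ran nearly level along mt-Rnr1 and then stepped down. The ratio was 3.29 (3.09 to 3.51) over chrM:309-547 and 3.37 (3.18 to 3.58) over chrM:548-786. It first fell below 3 at chrM:923, 853 bp into the gene and shortly before mt-Tv. At the lowest, chrM:1011, it was 2.61. Along mt-Rnr2 it stayed between 2.34 and 3.08 at every base. At the base with the highest ERRα coverage, mTOR was 2.35 times IgG (2.17 to 2.56), close to its median over the rest of chrM. It reached its lowest ratio of the neighbourhood, 1.85, at chrM:2982, on the falling side of the ERRα dome.

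**Figure D3:**
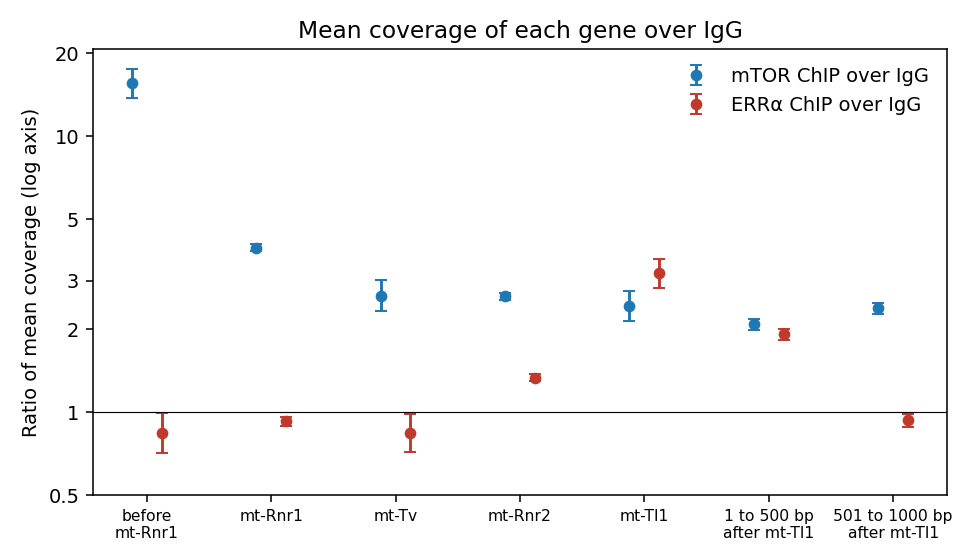
Ratio of mean coverage over IgG (log axis) for the mTOR and the ERRα ChIP in the sequence before mt-Rnr1, each of the 4 genes and the 2 stretches of 500 bp after mt-Tl1; points are ratios and bars exact 95% intervals for counting error. ERRα is at 3.18 in mt-Tl1 and at 1.92 in the first 500 bp after it, and below 1 in mt-Rnr1 and mt-Tv.

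Over 50-bp bins, 10 of the 241 fully covered chrM bins (4.15%) had ERRα at 2 times IgG or more, and 6 of the 53 bins within the 4 genes did. All 10 formed an unbroken run, chrM:2451-2950, of which 4 bins lay after mt-Tl1. The 5 highest bins were the 5 that make up chrM:2601-2850. They were led by chrM:2651-2700, where coverage was 339 for ERRα, 266 for mTOR and 103 for IgG. At 3 times IgG or more there were 2 bins (0.83%), chrM:2651-2700 and chrM:2701-2750, which contain mt-Tl1. For mTOR, 222 of the 241 bins (92.1%) were at 2 times IgG or more, and all 53 bins within the 4 genes were. At 3 times or more it was 43 bins (17.8%) and 17 of the 53. Since these ratios were among the values that picked the genes, nothing is read from the shares.

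After mt-Tl1 the ERRα excess carried on into ND1 and ended there. Over the first 500 bp (chrM:2751-3250) ERRα was at 1.92 times IgG (1.83 to 2.01), with 229 units against 120 (119.6). Over the next 500 bp (chrM:3251-3750) it was at 0.935 (0.886 to 0.986), with 111 units against 119 (118.5). mTOR stood at 2.08 (1.99 to 2.18) and 2.38 (2.27 to 2.49) in the same stretches.

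The 3 libraries shared much of an undulating profile, inside the dome as well as before it. All of them had a local high at chrM:651-700 in mt-Rnr1, with 468 (mTOR), 130 (129.8, ERRα) and 142 (IgG) units. mTOR and IgG had lows in the same bins of mt-Rnr2, chrM:1101-1150, chrM:1701-1750, chrM:2151-2200 and chrM:2501-2550. ERRα had its lows in the preceding bin at the first 3 of these and in the same bin at the fourth. From 200 bp into mt-Rnr1 to the middle of mt-Rnr2 (31 bins, chrM:301-1850), ERRα and IgG were correlated across bins at Pearson's r of 0.928 and Spearman's rho of 0.925. mTOR and IgG stood at 0.882 and 0.855. Neighbouring bins share tags, and all bins share the base sequence and its mappability, so these values describe the profile only. Over all 53 bins of the 4 genes, with the dome and the mTOR flank, r and rho were 0.0972 and 0.429 for ERRα and 0.261 and 0.603 for mTOR.

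The ERRα dome was also set beside nuclear ERRα regions, found in 200-bp bins with ERRα at least 3 times IgG. In its own bin, chrM:2601-2800, ERRα was 323 (322.5) and IgG 105 (104.7), a 3.08-fold excess. Of the 21764 nuclear regions, 96.2% had a larger fold, and their median was 4.38. All had to reach 3-fold to be found, so ranks given here hold only among regions past that cut. The difference in units was 218 (217.8) at chrM:2601-2800 against a median of 2.74 in nuclear regions, and 1 nuclear region, at 222, was higher. The chrM background was high, at 105 (104.7) IgG units against a median of 0.6 in the nuclear regions.

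How the dome compared in width depended on the baseline. Measured from 0, its 798 bp stood against a nuclear median of 358 bp (5th to 95th percentile 252 to 507), and 2 of 998 nuclear regions, from the 1000 with the largest folds, were at least as wide. Measured above the median of its flanks, it was 386 bp wide at 50% of its height. For the same nuclear regions the median of this width was 336 bp, with a 5th to 95th percentile range of 224 to 473, and 244 regions were at least as wide as the dome. At 500 bp from the maximum on the mt-Rnr2 side, the dome still held 0.287 of its height above the flanks, against 0.0173 for the median nuclear profile. At the same distance on the other side it held 0.0413 against 0.0201. These shares were counted from the top at chrM:2769, and the order of the sides depended on that choice. At -590 and 410 bp from chrM:2769 (negative towards mt-Rnr2), about 500 bp from the top at chrM:2683, the shares were 0.0352 and 0.181. In the ratio to IgG, counted from chrM:2683, the shares at 500 bp were 0.236 and 0.137. The steepest slopes, as a share of the height above the flanks, were 0.676% per bp on the mt-Rnr2 side and 0.496% on the other. The nuclear medians were 0.649% and 0.657%.

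**Figure D4:**
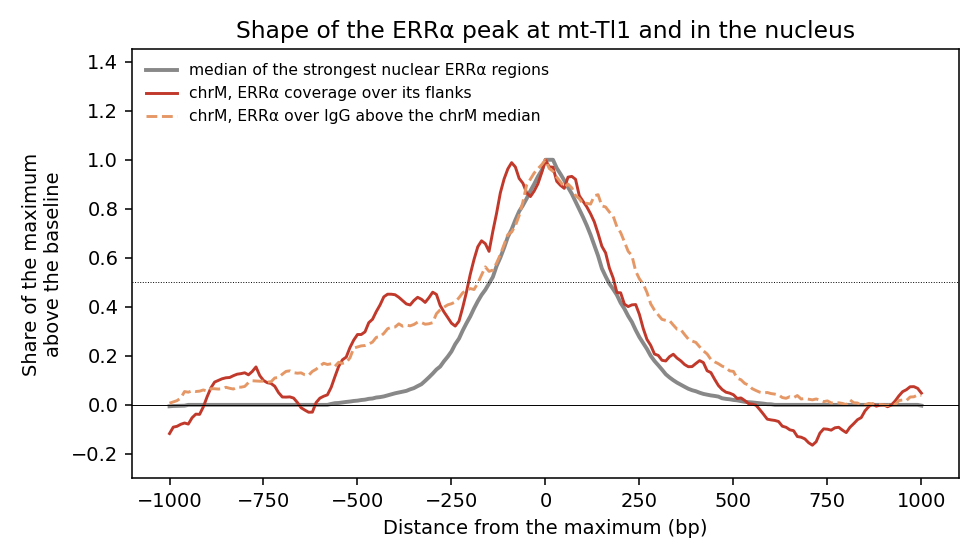
Height above the baseline as a share of the maximum, against distance in bp from the maximum (negative towards mt-Rnr2): ERRα coverage at mt-Tl1 over its flank median, ERRα over IgG there above the median of the rest of chrM, and the median profile of 998 nuclear ERRα regions. At 500 bp on the mt-Rnr2 side the mitochondrial curves are at 0.287 and 0.236, against 0.0173 for the nuclear one. Coverage is counted from its top at chrM:2769 and the ratio from its maximum at chrM:2683.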

How the data were processed

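Single 50-bp reads from 3 liver ChIP-seq libraries were sequenced, per the labels' protocols. The deposited values are a signal track of tag coverage, scaled by the authors to 10000000 tags, per the file headers. BWA 0.5.9, MACS 1.4.1 and mm9 are listed without roles in the submitters' processing notes. How tags were extended and duplicates treated is not given in these sources. Coverage summed to 149 to 150 (149.9) bp per tag. Track intervals over the genes had medians of 2, 4 and 5 bp (mTOR, ERRα, IgG), which limits the resolution.

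Interval starts were read as counting from 0. Mean coverage per gene was divided between libraries. Tag numbers were approximated from coverage, tag length and library total, and the procedure was tested on simulated data. No test across samples was possible with 1 library a group. Nuclear regions needed an ERRα level above 2.01, the 99.9th percentile of IgG bins, and a pseudocount of 0.2. All 4 genes and the 5 highest 50-bp chrM bins are named, by rule. The genes, the settings and the alternatives were chosen with earlier results of these data known. Gene positions came with the choice of genes. The RefSeq table (GRCm38.p6) served only for counting and naming neighbouring genes. Python 3.11.15, NumPy 2.4.6, pandas 2.3.3, SciPy 1.17.1 and Matplotlib 3.10.9 were used.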

Additional observations from a re-analysis of the deposited data

How the results depend on the processing

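Of 65 alternatives computed for 16 results, 36 stayed within the counting interval, within a tag length or, for shares, within 1.5 times, 26 moved and 3 reversed. Reversed means that the value crossed 1 where the main interval did not hold 1. No intervals were computed for the alternatives. Another denominator for the gene ratios, or a ratio in place of units for height and slopes, gives a different quantity. These were all counted as moved or reversed, so the tally does not measure stability. No paired analysis was possible because each group has 1 library, and no library was left out for that reason. Scaling to the autosomal mean left all gene ratios within their intervals, with 3.19 for ERRα over IgG in mt-Tl1. The autosomal means were nearly equal, at 0.621 (mTOR), 0.622 (ERRα) and 0.623 (IgG) units, so this scaling was bound to change little. Counting positions without coverage as 0 left the gene ratios unchanged by construction, since all 2681 positions of the genes were covered. Neither setting tests the stability of the gene ratios, although both were counted among the alternatives that stayed.

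Scaling to the chrM median lowered mTOR over IgG to 1.59 (mt-Rnr1), 1.07 (mt-Tv), 1.06 (mt-Rnr2) and 0.979 (mt-Tl1, reversed), and its share of bins at 2-fold to 4.56%. By construction, this setting removes the general mTOR excess on chrM. It gave ERRα 0.994 in mt-Rnr1 and 1.43 in mt-Rnr2. The median of single-base ratios gave 1.08 for ERRα in mt-Rnr2 and 3.36 for mTOR in mt-Rnr1. Leaving out 150 bp at each end gave 1.23 and 3.39 for the same pair. With mTOR as the denominator, ERRα stood at 0.234, 0.317, 0.508 (reversed) and 1.31 in mt-Rnr1, mt-Tv, mt-Rnr2 and mt-Tl1. With ERRα as the denominator, mTOR stood at 4.27, 3.16, 1.97 and 0.762 (reversed).

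Dividing ERRα by IgG turned the height into a ratio of 3.35 and the steepest slopes into 0.0116 (left) and 0.0098 (right) per bp. Slopes averaged between 25% and 75% of the maximum were 0.213 and 0.328 units per bp, left and right, but they include the flanks of the dome. The width of 798 bp became 386 bp above the flank median and 430.0 bp in the ratio above the chrM median, the latter added after seeing the data, as were the divisions by mTOR for position and width. A minimum of 3-fold lowered the shares of bins to 0.83% (ERRα) and 17.8% (mTOR). Where no construction is named, the cause was not tested.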
